A study of Mus musculus with 6 samples.

Results

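Glycolysis splits glucose to pyruvate, which is turned to lactate in the cytosol or oxidised in mitochondria. When oxygen is short, the prolyl hydroxylases Egln1 and Egln3 no longer mark the transcription factor Hif1a for destruction, and Hif1a with its partner Arnt switches on genes for glucose uptake, glycolytic enzymes, blood vessel growth and mitochondrial turnover. Embryonic stem (ES) cells are known for a high rate of glycolysis even with oxygen present. Described here are 36 mouse genes of this system, chosen by gene symbol: 17 glycolytic enzymes, 4 glucose and lactate transporters, 4 regulators of glycolytic flux, and 11 genes that are induced by hypoxia or sense it. The array's annotation gave 59 probes to 33 of the 36 genes, of 45281 probes in all, and 27 of the genes could be tested, among 9736 genes tested in the whole table.

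The data were 6 bead arrays of mouse ES cells, 3 transfected with a control and 3 with a shRNA vector against Ep400 (shEp400), the ATPase of a chromatin remodelling complex. The cells of all 6 samples grew on inactivated mouse embryonic fibroblasts (feeder cells) in medium with serum and the cytokine LIF, were electroporated with pHYPER shRNA vectors and were under puromycin for 48 h, starting 24 h after transfection. The labels do not name the ES cell line or what the control vector carried, and do not say whether samples came from separate cultures, so that p-values reflect only the variation among the samples given and part of it may be technical. The comparison asks how the transcripts of these genes stand after Ep400 knockdown.

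Between 15441 and 17337 probes were detected per array (detection p under 0.01). Over genes, the control arrays correlated with each other at 0.984 to 0.986 and the shEp400 arrays at 0.970 to 0.984, lowest between shEp400 arrays 1 and 3 (a description, since genes are not replicates). All arrays shared a slide, each group took its own adjoining positions there, and an effect of position cannot be told apart from one of the shRNA. Ep400 itself fell (log2 change -0.58, SE 0.16, limma adjusted p = 0.0159), a call lost with cyclic loess normalization and without control replicate 1. Of all genes tested, 43.7% were called at an adjusted p under 0.05, 20.6% higher and 23.1% lower in shEp400, with a median log2 change of -0.06. Of called genes, 47.2% were higher with quantile normalization, 59.4% with cyclic loess and 39.1% with 75th percentile scaling, and the median of all genes was then 0.05 and -0.17. Markers of feeder fibroblasts moved with the groups: 23 of 26 measured rose and 0 fell, the list's summed linear signal was 12556 to 15001.5 on control and 54242 to 82091 on shEp400 arrays, and 23 or 24 of the 26 were detected on each control array. Of 13 ES cell markers 7 fell and 1 rose. In these bulk samples, fewer cells of a type and less RNA per cell cannot be told apart. Which cells the transcripts of either marker list came from was not measured.

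The upstream sequence of the members with the 2 largest called rises and of the only member that fell is shown because Hif1a and Arnt bind a short core, ACGTG or GCGTG, near many genes they induce. Each is the 250 bases before the gene's start farthest upstream, from RefSeq (GRCm38.p6), read 5′ to 3′ on the gene's strand. Capitals mark ACGTG or GCGTG on either strand, and the window of Vegfa holds neither.
Vegfa chr17:46032378-46032627 (- strand): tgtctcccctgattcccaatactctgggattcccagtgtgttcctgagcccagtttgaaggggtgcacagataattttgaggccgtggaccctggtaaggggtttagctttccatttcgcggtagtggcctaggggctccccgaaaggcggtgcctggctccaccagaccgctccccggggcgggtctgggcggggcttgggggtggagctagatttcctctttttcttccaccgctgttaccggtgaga
Ddit4 chr10:59951771-59952020 (- strand): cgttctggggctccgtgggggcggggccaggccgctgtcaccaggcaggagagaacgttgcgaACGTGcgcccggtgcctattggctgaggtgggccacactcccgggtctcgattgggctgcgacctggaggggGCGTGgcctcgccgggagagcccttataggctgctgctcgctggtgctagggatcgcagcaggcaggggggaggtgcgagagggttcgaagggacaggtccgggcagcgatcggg
Pdk1 chr2:71872974-71873223 (+ strand): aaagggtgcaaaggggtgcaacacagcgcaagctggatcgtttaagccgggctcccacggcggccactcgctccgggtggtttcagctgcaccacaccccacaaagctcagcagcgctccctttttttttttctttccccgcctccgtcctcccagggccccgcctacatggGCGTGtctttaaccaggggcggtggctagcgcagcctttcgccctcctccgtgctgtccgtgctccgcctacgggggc
The Ddit4 window held a match to each core, whose first bases lay at -187 and -115 from the start, and the Pdk1 window held 1, at -78. A second Vegfa start in the table, inside the gene, had matches at -218 and -211, and a second Pdk1 start had none. Windows were listed for 34 of the 36 members, and for neither Ndrg1, which was called, nor Slc2a3, which was not. At least 1 core stood in 40 of their 50 windows, against 38.6% of all 32841 windows in the table and 55.8% of those of genes tested on the arrays. Some windows of Eno1, Aldoa and Pfkm overlap, so a site there can be counted more than once. By windows, 7 of 10 of called members and 21 of 26 of members tested and not called held a core. By genes, counting a gene once if any of its windows held a core, these were 7 of 7 and 16 of 18, beside 62.0% of the genes tested on the arrays, so the order of called and not called members depends on the unit counted. ACGTG is also part of CACGTG, the E-box bound by other factors, which was present in 6 of the 50 windows. It was present in 6.02% of all windows and 8.51% of those of genes tested on the arrays. A match describes the letters and is not a binding site.

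Most of the hypoxia genes that could be tested were higher in shEp400 samples, while the Hif1a transcript did not pass the test. Of the 11 genes, 8 passed the detection filter, and 5 of these 8 rose and 0 fell (Vegfa, Ddit4, Adm, Ndrg1 and Egln3), beside 20.6% of all genes called higher. The median log2 change of the 8 was 0.97, beside -0.06 over all genes. Over all 27 members, 7 were called with a change of at least 1.5-fold, beside 37.7% of all genes. The groups did not overlap for 13 of the 27, with shEp400 above control for 9 (25.1% of all genes) and below for 4 (30.3% of all genes). Adm passed the filter through the shEp400 arrays alone, so it could enter the count and the median only as a rise and adds no support to either. Without Adm, the middle log2 change of the tested hypoxia genes was that of Egln3, 0.77. Egln1, which was not called, was detected on 1 of 3 control arrays and also needed the shEp400 arrays to pass the filter.

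Vegfa encodes the growth factor that recruits blood vessels and is a classic Hif1a target. Its normalized log2 signal was 7.89, 7.99 and 7.78 in control samples, and it reached 9.48, 9.16 and 10.38 in shEp400 samples. All shEp400 values were above all control values, and shEp400 array 3 was highest. The rise was 3.46-fold (log2 change 1.79, SE 0.28, limma adjusted p = 0.000826). A second detected probe of Vegfa rose by a log2 change of 2.32 (SE 0.29, limma adjusted p = 0.00026), and another was detected on 0 arrays.

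Ddit4, also called REDD1, restrains the growth kinase mTORC1 under hypoxia and other stresses. It had signals of 9.24, 9.70 and 9.12 in control and 11.06, 10.81 and 10.83 in shEp400 samples. The groups were separated by more than 1 log2 unit and the shEp400 arrays lay close together. The rise was 2.92-fold (log2 change 1.55, SE 0.19, limma adjusted p = 0.000258).

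Adm encodes adrenomedullin, a peptide that widens vessels. Its probe was not well above background on any control array (4.43, 4.35 and 4.44) and was detected on all 3 shEp400 arrays (5.80, 5.78 and 6.15). Only a bound can therefore be given, and Adm was at least 1.70-fold higher in shEp400 samples (limma adjusted p = 0.000153). That p-value adds no support, because the probe passed the filter through the shEp400 arrays alone. The measured log2 difference depended on the background correction: group means were 4.41 and 5.91 with the correction used, and the difference was 0.77 with an offset of 50 and 0.52 with none.

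Ndrg1, a stress-responsive gene induced by hypoxia, gave 6.60, 7.15 and 6.83 in control and 8.49, 7.75 and 7.81 in shEp400 samples. The groups were separate with shEp400 array 1 highest. The rise was 2.23-fold (log2 change 1.16, SE 0.23, limma adjusted p = 0.00331), and a second probe, detected on 2 of 3 control arrays, rose by a log2 change of 1.38 (limma adjusted p = 0.00555).

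Egln3, one of the oxygen-sensing hydroxylases and itself a Hif1a target, was at 6.97, 6.94 and 6.60 in control and 7.85, 7.38 and 7.60 in shEp400 samples. The values did not overlap between groups, and the rise was 1.71-fold (log2 change 0.77, SE 0.19, limma adjusted p = 0.00845). The other probes of Egln3 were detected on 0 arrays. Its relative Egln1, detected on 1 of 3 control and all shEp400 arrays, had a log2 change of 0.27 (95% interval -0.47 to 1.00) that did not pass the test. Control array 2 was the high one (6.09, against 4.99 and 4.53) and the only control array that detected the probe. Without it the change was 0.73 (limma adjusted p = 0.0263). The probe then passed the filter through the shEp400 arrays alone and could appear only as a rise, so that p-value adds no support.

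**Figure D1:**
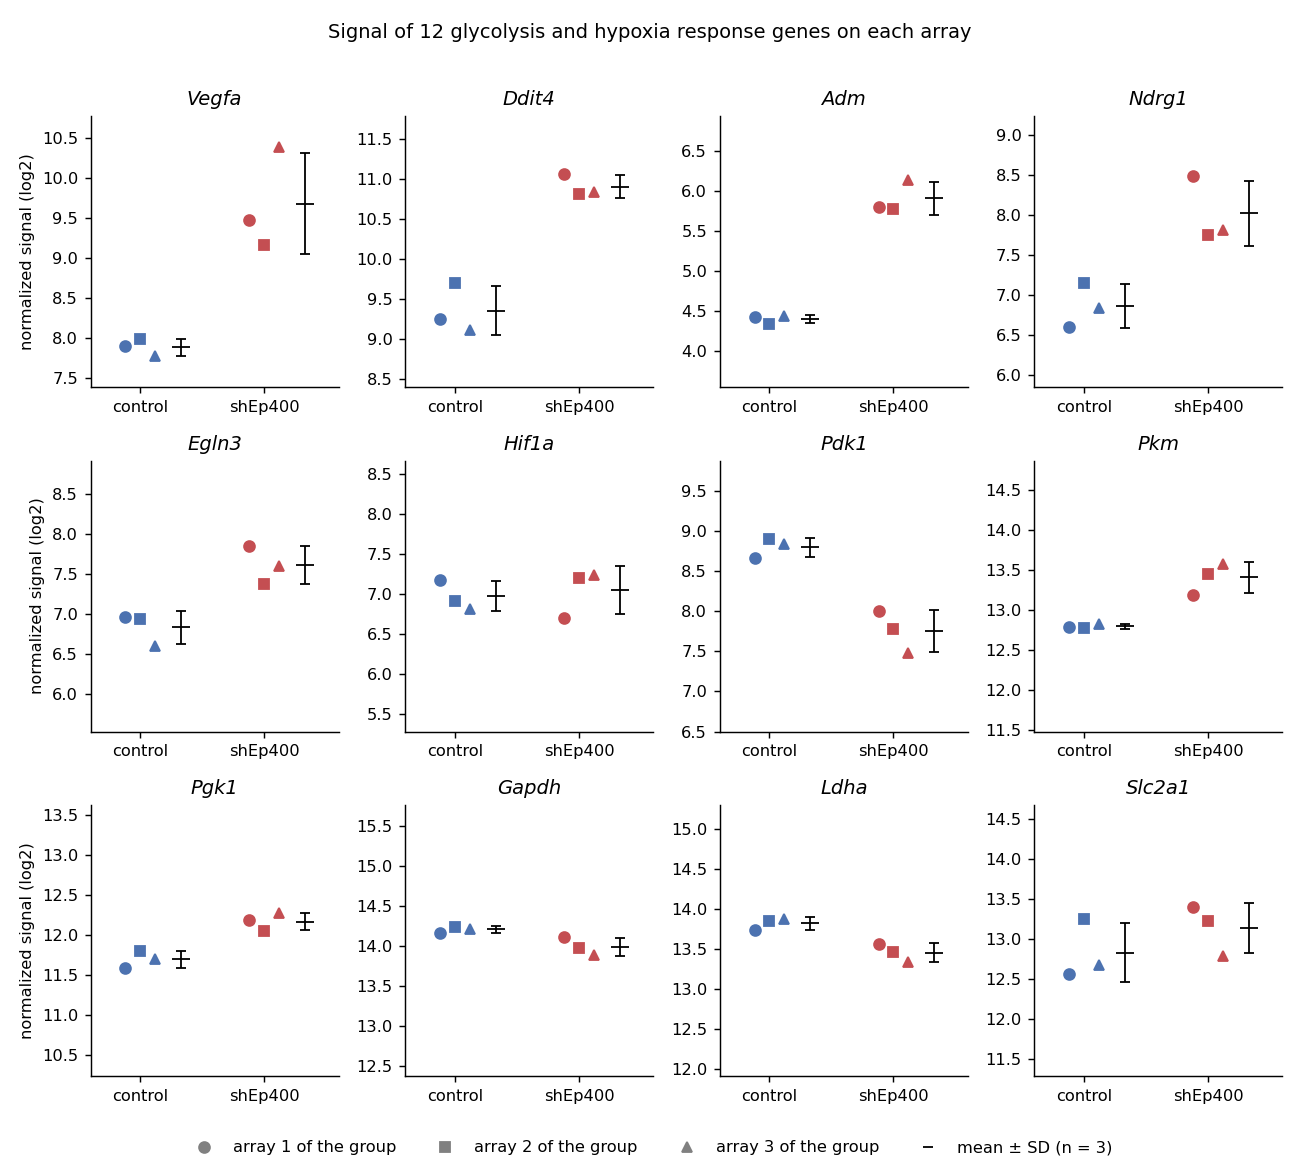
Normalized log2 signal (vertical axes, each spanning the same width) of 12 genes on the 3 control (blue) and 3 shEp400 (red) arrays, with bars for mean ± SD (n = 3). Vegfa, Ddit4, Adm, Ndrg1 and Egln3 lay higher on every shEp400 array, Pdk1 lay lower, and Hif1a overlapped; Adm was not well above background on the control arrays.

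Hif1a, the oxygen-regulated factor itself, is controlled mainly through its protein, which the arrays do not measure. Its signals were 7.18, 6.92 and 6.82 in control and 6.71, 7.20 and 7.24 in shEp400 samples, and its other probes were detected on 0 arrays. The groups overlapped, and the log2 change of 0.08 (SE 0.20, 95% interval -0.36 to 0.52, limma adjusted p = 0.776) leaves room for changes within that interval. Ankrd37, another hypoxia-induced gene, did not pass either (log2 change 0.24, 95% interval -0.28 to 0.77). The probes of Bnip3 and Higd1a, which act at mitochondria, were detected on 0 of 6 arrays, and that of Mxi1, a MYC antagonist, on 2 of 6, so these genes were not tested. The raw signal of the Bnip3 probe was 92.0, 105 and 123 in control and 111, 112 and 122 in shEp400 samples.

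The median difference of the 8 hypoxia genes, Adm among them, from the control mean was 1.20, 0.72 and 0.86 on shEp400 arrays 1, 2 and 3. The feeder markers on the same arrays stood at 1.78, 2.23 and 2.42. Single called hypoxia genes differed in their order: Vegfa and Adm were highest on shEp400 array 3, and Ddit4, Ndrg1 and Egln3 on array 1. The part of feeder-cell RNA in the rises was not tested.

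Among the regulators of glycolytic flux, Pdk1 fell. This kinase blocks pyruvate dehydrogenase and so keeps pyruvate from being oxidised in the mitochondria, and it is known as a Hif1a target. Its signals were 8.67, 8.90 and 8.84 in control and 8.00, 7.79 and 7.48 in shEp400 samples. Every shEp400 value was below every control value. The fall was 2.06-fold (log2 change -1.04, SE 0.18, limma adjusted p = 0.00156), and Pdk1 was the only one of the 27 tested members called lower, beside 23.1% of all genes. A second Pdk1 probe was detected on all 3 control arrays and 0 shEp400 arrays, at least 1.42-fold lower. It passed the detection filter through the control arrays alone, could therefore appear only as a fall, and adds no support to the first probe.

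Pdk3, a kinase of the same family, had a log2 change of -0.22 (95% interval -0.57 to 0.14), and Pfkfb4, which makes an activator of phosphofructokinase, one of 0.39 (95% interval 0.03 to 0.75, limma adjusted p = 0.0757). Neither passed the test after adjustment, although the values of the groups did not overlap for either; 55.5% of all genes had groups that did not overlap. The Pfkfb3 probe was detected on 0 arrays.

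**Figure D2:**
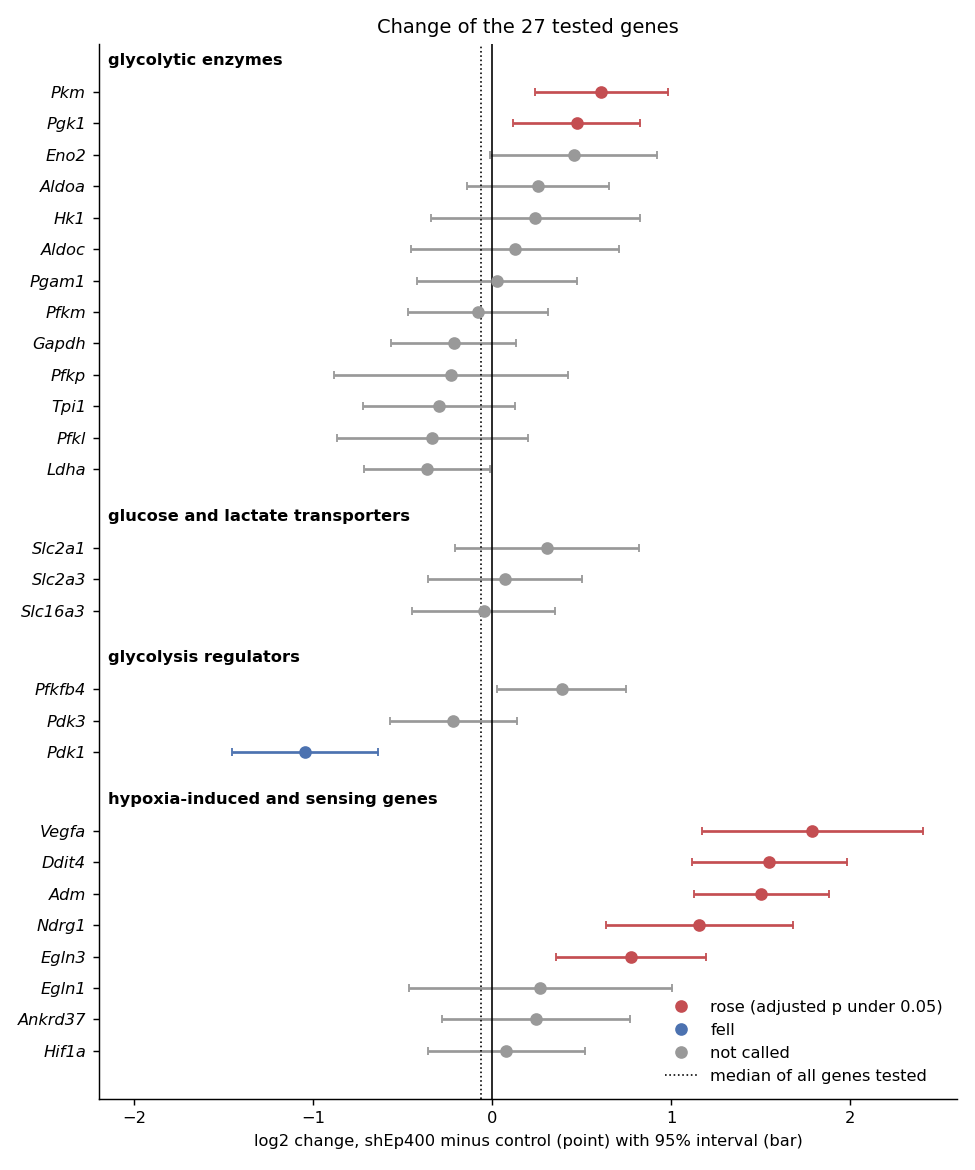
Log2 change (shEp400 minus control) of the 27 tested genes with its 95% interval, grouped by role; red rose, blue fell, grey did not pass, and the dotted line is the median of all genes (-0.06). The 5 called hypoxia genes lie to the right and Pdk1 to the left, while the glycolytic enzymes lie between -0.36 and 0.61; signs of Aldoa, Gapdh, Pfkm, Pgam1, Slc2a1 and Slc2a3 differed between normalizations.

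The glycolytic enzymes did not move as a block. Of 17 enzymes 13 were tested, 2 rose (Pkm and Pgk1), 0 fell and 11 did not pass, beside 20.6% of all genes called higher and 23.1% lower. With 75th percentile scaling 0 rose and 4 fell, leaving out 1 array left 0 to 2 called (0 without shEp400 replicate 2), and the probes of Pgk1 disagreed. The median log2 change of the 13 was 0.03. The 11 that did not pass had log2 changes between -0.36 and 0.46, and their 95% intervals reached from -0.88 to 0.92. Hk2, Gpi1 and Eno1 had no probe under their symbols, and the probe of Ldhb was detected on 0 arrays.

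Pkm encodes pyruvate kinase, the last step of glycolysis. It was at 12.78, 12.77 and 12.83 in control and 13.19, 13.45 and 13.57 in shEp400 samples. The control samples had an SD of 0.0274 (n = 3) and the groups were separate. The rise was 1.53-fold (log2 change 0.61, SE 0.17, limma adjusted p = 0.0144). It did not pass with 75th percentile scaling (log2 change 0.24) or without shEp400 replicate 2 (0.59, limma adjusted p = 0.054).

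Pgk1, phosphoglycerate kinase, makes ATP in the middle of the pathway. Its brightest probe was at 11.59, 11.80 and 11.69 in control and 12.18, 12.05 and 12.27 in shEp400 samples. The rise was 1.39-fold (log2 change 0.47, SE 0.16, limma adjusted p = 0.036). A second probe annotated to the same gene, detected on 2 of 3 shEp400 arrays, went the other way, with 6.63, 6.31 and 5.99 in control and 5.31, 5.02 and 5.21 in shEp400 samples (log2 change -1.13, SE 0.20, limma adjusted p = 0.00163). The call of the brightest probe was lost whichever of the 6 arrays was left out and with 75th percentile scaling, and the mean of both probes gave -0.33, so these arrays give Pgk1 no settled direction.

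Tpi1, triosephosphate isomerase, had 3 detected probes, annotated to the same gene, that also differed in direction. The brightest gave a log2 change of -0.30 (SE 0.19, limma adjusted p = 0.228) and another 0.43 (SE 0.18, limma adjusted p = 0.0829), and neither passed. The dimmest fell from 7.27, 7.39 and 7.39 in control to 5.93, 5.88 and 5.65 in shEp400 samples (log2 change -1.53, SE 0.17, limma adjusted p = 0.000131). Of the 3280 genes with more than 1 detected probe, 21 had probes called in opposite directions. Genes such as Gapdh, Pgk1 and Tpi1 have processed pseudogene copies in the mouse genome, and which transcripts each probe detects was not tested.

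**Figure D3:**
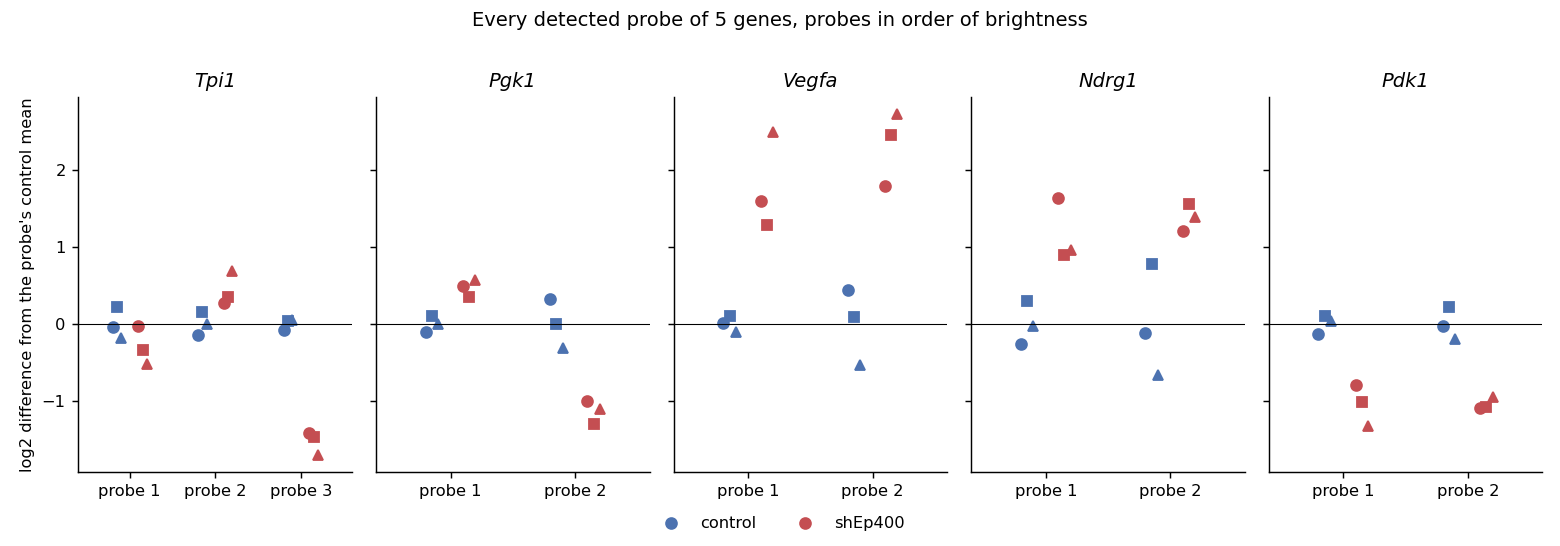
Log2 difference of each detected probe of 5 genes from that probe's own control mean, for control (blue) and shEp400 (red) arrays, probes numbered by brightness. Both probes of Vegfa and both of Ndrg1 lay higher in shEp400 samples, whereas those of Pgk1 (0.47 and -1.13) and Tpi1 (-0.30, 0.43 and -1.53) went in different directions; probe 2 of Pdk1 was at background on the shEp400 arrays, so its points there are not measured sizes.

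Ldha, which turns pyruvate to lactate, gave 13.73, 13.85 and 13.87 in control and 13.57, 13.46 and 13.34 in shEp400 samples. The shEp400 values were lower without overlap, but the change did not pass (log2 change -0.36, SE 0.16, limma adjusted p = 0.0873). It passed in 5 of 16 other settings, with a range of -0.71 to -0.18 over all of them.

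Gapdh, often used as a reference transcript, gave 14.16, 14.24 and 14.22 in control and 14.12, 13.97 and 13.89 in shEp400 samples. The shEp400 values were again lower without overlap and did not pass (log2 change -0.22, limma adjusted p = 0.289). The value was 0.04 with cyclic loess and -0.51 with 75th percentile scaling, so its sign depended on the normalization.

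The other enzymes did not pass. Aldoa, an aldolase, had a log2 change of 0.25, which turned to -0.07 with 75th percentile scaling. The neuronal-type enolase Eno2 had 0.46 (limma adjusted p = 0.103), Hk1, a hexokinase with signals near background, 0.24 and the aldolase Aldoc 0.13. The phosphofructokinase subunits Pfkl, Pfkp and Pfkm had -0.34, -0.23 and -0.08, of which Pfkm turned to 0.09 with cyclic loess. Pgam1, a mutase of the lower pathway, had 0.03, and -0.15 with 75th percentile scaling. The 4 that fell with that scaling were Pfkl, Tpi1, Gapdh and Ldha, and with cyclic loess 3 enzymes rose and 0 fell. Relative to the median of all genes, the median of the enzymes was 0.09 with quantile normalization, 0.14 with cyclic loess and 0.02 with 75th percentile scaling.

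**Figure D4:**
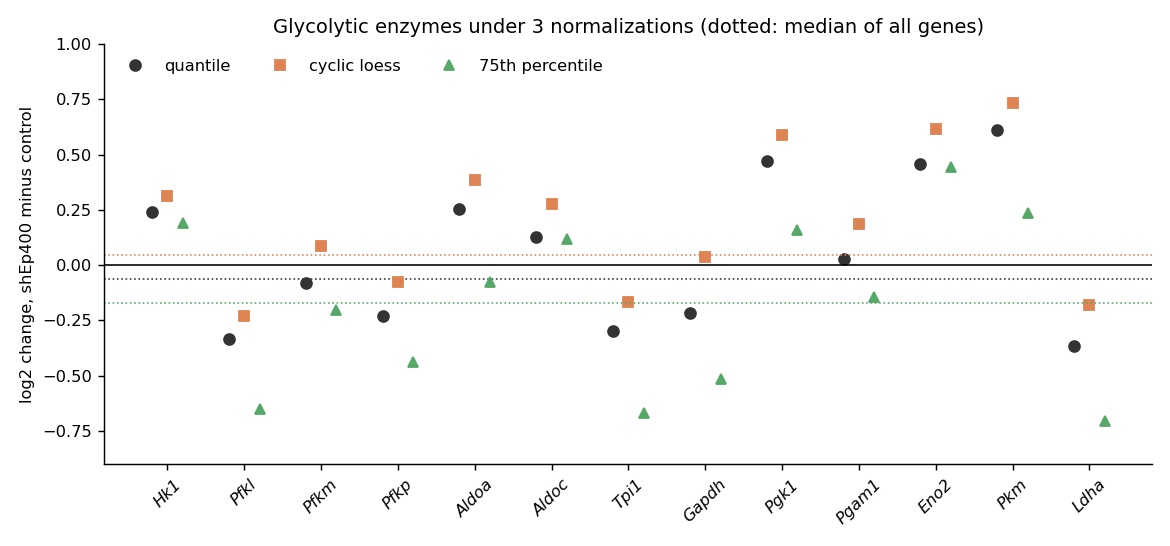
Log2 change (shEp400 minus control) of the 13 tested glycolytic enzymes under quantile (black), cyclic loess (orange) and 75th percentile (green) normalization, with dotted lines for the median of all genes (-0.06, 0.05 and -0.17). Pkm, Pgk1 and Eno2 were above 0 and Ldha, Tpi1, Pfkl and Pfkp below 0 in all 3, while Aldoa, Gapdh, Pfkm and Pgam1 changed sign.

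None of the transporters passed. Slc2a1 (GLUT1), the widespread glucose carrier and a Hif1a target, gave 12.56, 13.25 and 12.68 in control and 13.40, 13.22 and 12.79 in shEp400 samples. The groups overlapped (log2 change 0.31, 95% interval -0.21 to 0.82, limma adjusted p = 0.306; -0.05 with 75th percentile scaling). Slc2a3 (GLUT3), a glucose carrier of high affinity, had a log2 change of 0.07 (95% interval -0.36 to 0.50; -0.25 with 75th percentile scaling) and the lactate exporter Slc16a3 one of -0.05 (95% interval -0.45 to 0.35). Slc16a3 lay near background, and the probe of Slc16a1, a carrier of lactate and pyruvate, was detected on 0 arrays.

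Beyond the 36 genes, the wider pathways were counted as well. Of 49 tested genes on a list of other hypoxia pathway members and targets, 25 rose and 6 fell, beside 20.6% and 23.1% of all genes, with a median log2 change of 0.62 beside -0.06 over all genes. Of the 25, Rora, Flt1 and Pgf were detected on 0 control arrays and all 3 shEp400 arrays, so they could enter only as rises. Stc1 and Cxcr4 were detected on 1 control array, and Stc2 and Edn1 on 2. These genes were detected on all 3 shEp400 arrays, which they also needed to pass the filter. Among the 39 genes of the list detected on all 6 arrays, the median was lower, at 0.31, beside -0.11 over all genes so detected. Of 26 other glycolysis and pentose phosphate genes, 4 rose (15.4%, beside 20.6% of all genes) and 3 fell (11.5%, beside 23.1%), with a median of -0.09. Of the 4, Fbp1 was detected on 1 control array and all 3 shEp400 arrays, so it too needed the shEp400 arrays to pass. The largest rises of the hypoxia list were Lox, a collagen cross-linking enzyme (8.63-fold, log2 change 3.11, SE 0.19), the haem-degrading enzyme Hmox1 (5.93-fold, log2 change 2.57, SE 0.59) and the membrane-binding protein Anxa2 (5.04-fold, log2 change 2.33, SE 0.17, and 1.63 with the mean of its probes). Fibroblasts express Lox and Anxa2 strongly, and the part of feeder-cell RNA in these rises was not tested. The call of Hmox1 was lost with a trended and robust variance (limma adjusted p = 0.0616), and its log2 change was 3.25 without shEp400 replicate 1 and 1.85 without shEp400 replicate 3.

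The largest falls of that list were Nampt, an enzyme of NAD salvage detected on 2 of 3 shEp400 arrays (log2 change -1.70, SE 0.29, limma adjusted p = 0.00141, and -0.73 without background correction), the histone demethylase Kdm4c (-0.79, SE 0.16) and Hif3a, a relative of Hif1a (-0.75, SE 0.21, limma adjusted p = 0.0162). The call of Hif3a was lost without control replicate 2 and without shEp400 replicate 2, and its log2 change was -0.33 without background correction.

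On the glycolysis list, Pdk4, a kinase of the same family as Pdk1, was 2.44-fold higher (limma adjusted p = 0.00029, log2 change 1.29, SE 0.17). G6pc3, a glucose-6-phosphatase, rose 1.84-fold (limma adjusted p = 0.0236, lost without a detection filter and on leaving out any of 4 of the 6 arrays) and the phosphoglucomutase Pgm1 rose 1.80-fold (limma adjusted p = 0.0108, lost with 75th percentile scaling). The groups overlapped for G6pc3, and its log2 change of 0.88 was 0.40 without background correction. Eno3, the muscle-type enolase, fell 2.69-fold (log2 change -1.43, SE 0.21, and -0.66 without background correction). Gpd2, the mitochondrial glycerol phosphate dehydrogenase, fell 2.43-fold (log2 change -1.28, SE 0.16), and Tigar, which lowers fructose bisphosphate, fell 1.69-fold, a call lost without background correction.

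**Figure D5:**
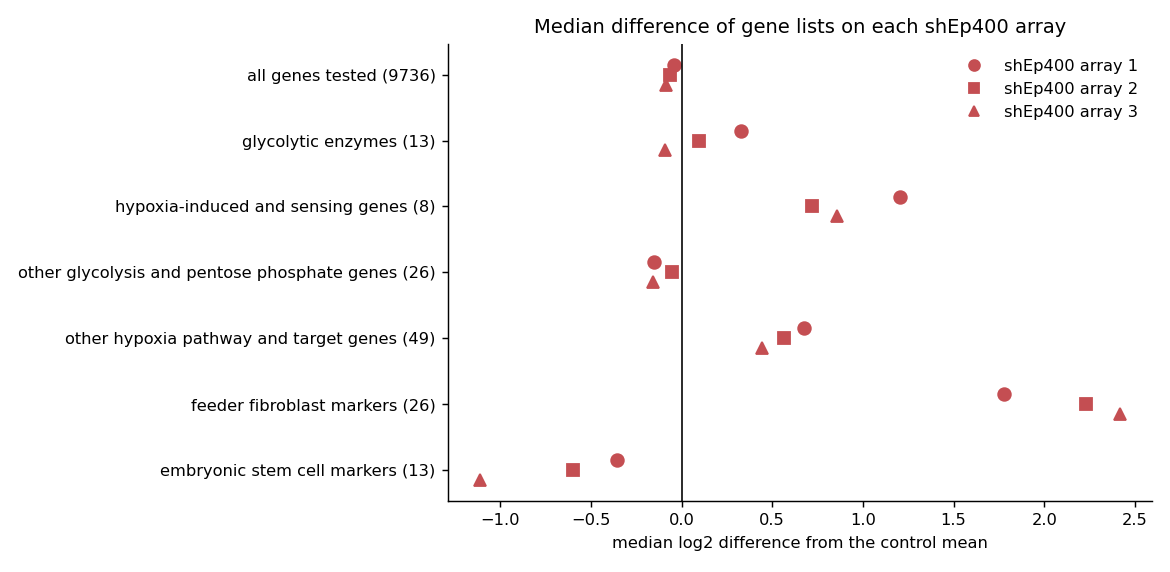
Median log2 difference from the control mean (horizontal axis) of each gene list on shEp400 arrays 1, 2 and 3, with the number of genes tested in brackets. The hypoxia genes lay at 1.20, 0.72 and 0.86, the feeder markers at 1.78, 2.23 and 2.42, and the glycolytic enzymes at 0.33, 0.10 and -0.09.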

How the data were processed

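Expression was read on 1 Illumina bead array per sample. The main deposited table gives signal intensities and a detection p-value per probe, per the file headers, and the submitters' processing notes name GenomeStudio. The intensities were unscaled and without background subtraction, as their values show (lowest 77.6). A deposited matrix of the authors' processed intensities had a median of 114 on every array and the same probe ranks as the signals (rank correlation 1), the pattern of quantile normalization, and served as an alternative. Symbols came from the platform annotation (34885 probes with 1 symbol, 18 with several, left out, and 10378 with none), and no genome build was needed for the signals.

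Log2 values were made with neqc in limma 3.58.1 (R 4.3.3), with detection p-values as background, an offset of 16 and quantile normalization. A probe entered if its detection p was under 0.01 on 3 or more arrays, and the brightest represented its gene. Groups were compared with lmFit and eBayes (two-sided, 4 residual degrees of freedom, Benjamini-Hochberg over 9736 genes, or 14238 probes where single probes are given). Where every array of a group was at background, a bound replaces the fold: the brighter mean was set against the dimmer group averaged after raising each array to its lowest detected value. The number of arrays limits precision. The steps were tested on simulated data. The members and lists were chosen with earlier results of these data known, so counts are descriptions. Named genes are all members, called members at 1.5-fold or more and 7 fixed ones with values per array, and the 3 largest called rises and falls of each wider list.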

Additional observations from a re-analysis of the deposited data

How the results depend on the processing

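Of 427 log2 changes of the 27 tested members under 16 other settings, 404 kept their direction and side of the threshold (or did not pass in either), 9 lost and 13 gained a call, and 1 reversed. Pdk1, Vegfa, Ddit4, Ndrg1 and Egln3 were called in all 16, and Adm in the 12 in which it was tested. Where a detection filter was applied, Adm passed it through the shEp400 arrays alone. Pgk1 reversed with the mean of its detected probes (-0.33) and with its other probe (-1.13), which was added after seeing the data; the cause was not tested. The number of glycolytic enzymes called was 4 with 75th percentile scaling (from 2) and 0 to 2 when 1 array was left out, and that of glycolysis regulators was 2 with cyclic loess (from 1). Hypoxia-induced genes called numbered 4 to 6 when 1 array was left out, and calls over all genes 3000 to 4199. The detection filter set both ends of the first range. Adm failed it without any 1 of the shEp400 arrays, and without control replicate 2 Egln1 passed it through the shEp400 arrays alone. No paired analysis was possible because the labels give no replicate numbers that the groups share. Adm, Egln1, Hk1, Slc16a3, Eno3, Nampt, Tigar, Hif3a and G6pc3 lay near background in some or all samples, where the correction sets the size of a change.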

Other observations

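Other genes of the hypoxia list, chosen after their values were seen, can be grouped by what they do. The collagen prolyl hydroxylases P4ha1 and P4ha2 rose (log2 changes 1.40, SE 0.22, and 2.13, SE 0.16; P4ha1 gave 0.76 without background correction), as did the lysyl hydroxylases Plod1 and Plod2 (0.81, SE 0.21, and 1.05, SE 0.20). These enzymes modify collagen, which feeder fibroblasts make, and their rises stand beside a median log2 change of 2.13 for the feeder markers; the part of feeder-cell RNA was not tested. Pygl, which releases glucose from glycogen, rose (1.95, SE 0.25; 1.34 without background correction), and so did the Hif1a-restraining factor Cited2 (1.42, SE 0.21) and the repressor Bhlhe40 (1.31, SE 0.25). The mitophagy receptor Bnip3l, a relative of Bnip3, had 0.62 (SE 0.17, a call lost with 75th percentile scaling and without control replicate 1), and Hilpda, a lipid droplet protein, rose by 0.80 (SE 0.15). Of the machinery that degrades Hif1a protein, Eloc rose (1.14, SE 0.23) and Cul2 fell (-0.49, SE 0.17, limma adjusted p = 0.0407, a call that ended with cyclic loess, with the mean of its probes and without any 1 of 5 of the 6 arrays), while Rbx1 (-0.45, limma adjusted p = 0.0672, with shEp400 values below control without overlap), Vhl (-0.23), Elob (0.02) and the Hif1a partner Arnt (-0.21) did not pass the test. Mif, a cytokine, fell (-0.45, SE 0.15), a call that ended with cyclic loess and without any 1 of 5 of the 6 arrays.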
